A study of Mus musculus with 6 samples.

Results

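The genes described here are *Pou5f1*, which encodes Oct4, the SOXB1 genes *Sox1*, *Sox2* and *Sox3*, the SOXB2 gene *Sox21*, and the POU class III genes *Pou3f1*, *Pou3f2*, *Pou3f3* and *Pou3f4*. They were chosen by name, as the rows whose Ensembl identifier carries one of these mouse symbols, and make up 9 of the 35565 genes listed. The choice was made with earlier results of these data known, so counts among the 9 are description only. RNA was sequenced in bulk from mouse gastruloids at day 5. Gastruloids are aggregates of embryonic stem cells (ESCs) that break symmetry and form derivatives of the germ layers. There were 3 libraries of Control (NT) gastruloids, grown from ESCs carrying a non-targeting construct (their GEO genotype entry reads WT), and 3 libraries of KD-1 gastruloids, grown from ESCs in which the lncRNA *T-UCstem1* was knocked down. Both cell lines came from TBV2 129/SvP ESCs, both were cultured in FBS/LIF/2i before aggregation, and both were pulsed with the GSK3 inhibitor CHIR99021. KD-1 is 1 clone, so that a difference between clones and an effect of the knockdown cannot be told apart in these libraries. The level of *T-UCstem1* was not analysed here, and GEO's labels do not say whether the 3 libraries of a group came from separate cultures beyond the term biological replicates, so that p-values measure the spread between these libraries.

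Oct4 is a POU domain factor that binds an octamer of DNA, and in pluripotent cells it pairs with the HMG box factor Sox2 on composite sites. Sox2 is then kept in neural progenitors, where it acts beside Sox1 and Sox3, and POU class III factors (Oct6, Brn2, Brn1 and Brn4) take over as its octamer-binding partners while Oct4 is lost. Sox21, of the SOXB2 group, is a repressor that counters SOXB1 activity in neural progenitors. *Pou5f1* is thus the pluripotent member of the set, *Sox2* belongs to both states, *Sox3* and *Pou3f1* mark the late epiblast and the neural plate, and *Sox1*, *Sox21*, *Pou3f2*, *Pou3f3* and *Pou3f4* are the neural members.

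In KD-1 gastruloids 8 of the 9 genes were higher than in Control, and this held for the pluripotent and the neural members alike. *Pou5f1* was 2.45-fold higher (95% interval 2.02 to 2.98), *Sox2* 4.66-fold (3.90 to 5.57), *Sox1* 3.54-fold (3.10 to 4.04), *Pou3f2* 7.10-fold (6.15 to 8.20) and *Pou3f3* 20.8-fold (14.6 to 29.6). *Sox3* was the exception, with a 1.15-fold difference that did not pass the test. No member was lower. Calls required a fold change over 1.5 in either direction and an adjusted p below 0.05 in edgeR's quasi-likelihood test (Benjamini-Hochberg over all 15110 genes tested). By this rule 19.7% of all genes tested were called higher, and 18.1% were called lower. The median log2 fold change was 2.22 over the 9 members and -0.01 over all genes tested. In 8 of the 9 genes every KD-1 library lay above every Control library, which 35.3% of the genes tested did. In bulk libraries more cells expressing a gene and more RNA of that gene per cell cannot be told apart, and this holds for every level below.

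Library totals ranged from 20982249 to 56674906 counts in Control and from 41180012 to 85561026 in KD-1, and within a group the libraries are told apart by depth (lowest, middle and highest). Levels are given as CPM, counts scaled to the TMM-normalized library size. A count of 3, taken as the limit of detection, was worth between 0.145 CPM in the shallowest and 0.0345 CPM in the deepest library (counting error only). The Control library of middle depth stood apart from the other Control libraries: its counts differed from theirs with a chi-square of 36.3 and 36.5 per degree of freedom, against 15.3 between the other two and 4.85 to 11.1 within KD-1. It was also the highest Control library for 7 of the 9 genes. Without it the same number of members, 8, was called higher.

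The windows at the members' transcription start sites are shown because the proteins that these genes encode bind octamer or SOX motifs. Whether the members regulate each other was not tested. RefSeq windows of 300 bases on GRCm38.p6, from 250 bases before the start to 50 after it, were at hand for 7 of the 9 genes (8 windows, with 2 starts of *Pou5f1*), and none for *Sox3* and *Pou3f1*. The octamer ATGCAAAT was sought on both strands, and so were the SOX cores ACAAT and ACAAAG, the latter added after the windows had been seen, and the composite of CATTGTT directly before the octamer. The octamer stood in 1 window, that of *Sox1*, 19 bases after the start. The first 3 stretches below are the 250 bases before the starts of *Pou5f1* (chr17:35505782-35506031 and, for the second start, chr17:35508557-35508806) and of *Sox2* (chr3:34649745-34649994), and the last is 30 bases around the octamer of *Sox1* (chr8:12395526-12395555), each on the plus strand with the matches in capitals.
Pou5f1, first start: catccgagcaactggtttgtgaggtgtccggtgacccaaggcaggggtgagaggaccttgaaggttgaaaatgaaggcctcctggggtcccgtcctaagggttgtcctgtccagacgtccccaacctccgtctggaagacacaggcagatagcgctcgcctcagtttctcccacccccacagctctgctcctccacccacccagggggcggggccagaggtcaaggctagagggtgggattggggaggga
Pou5f1, second start: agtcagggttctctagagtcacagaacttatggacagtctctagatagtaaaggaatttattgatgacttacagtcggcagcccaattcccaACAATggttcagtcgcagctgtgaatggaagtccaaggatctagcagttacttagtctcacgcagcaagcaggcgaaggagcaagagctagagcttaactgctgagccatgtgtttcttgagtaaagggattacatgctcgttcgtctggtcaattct
Sox2: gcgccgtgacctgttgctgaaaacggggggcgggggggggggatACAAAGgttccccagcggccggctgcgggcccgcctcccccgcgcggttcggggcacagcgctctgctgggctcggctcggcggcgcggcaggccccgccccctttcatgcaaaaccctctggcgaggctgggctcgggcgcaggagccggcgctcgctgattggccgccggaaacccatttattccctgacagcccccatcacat
Sox1: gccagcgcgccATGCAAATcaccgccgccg
The octamer was held by 1.74% of all 32851 windows of this length, ACAAT by 31.0% and ACAAAG by 18.7%. ACAAT stood in 1 member window (the second *Pou5f1* start), ACAAAG in 1 (*Sox2*), and the composite in none of all 32851 windows. These are matches of letters in a short window and show no binding, and the known distal enhancer of *Pou5f1* lies outside it.

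*Pou5f1* (ENSMUSG00000024406, chromosome 17, 35816789 to 35822274 on GRCm39, plus strand) is the POU class V gene required to found and keep pluripotent cells. Its level was 229, 328 and 251 CPM in the Control libraries of lowest, middle and highest depth and 627, 670 and 685 CPM in those of KD-1. All KD-1 libraries lay well above the Control library of middle depth, the highest of its group. The means were 269 ± 52.1 and 661 ± 29.9 CPM (SD, n = 3), and the log2 fold change was 1.29 ± 0.12 (standard error) with an adjusted p of 3.1e-05. Processed pseudogenes of *Pou5f1* can draw its reads, but the 7 that the table lists had 0 counts in every library. Control gastruloids still carried *Pou5f1* transcripts at day 5, with 4741 counts in the shallowest library.

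*Sox2* (ENSMUSG00000074637, chromosome 3, 34704554 to 34706610, plus strand) has 1 exon and serves both the pluripotent and the neural state. Control libraries held 106, 136 and 99.5 CPM and KD-1 libraries 521, 524 and 548 CPM. The lowest KD-1 library was 3.83 times the highest Control library. The log2 fold change was 2.22 (95% interval 1.96 to 2.48, adjusted p = 8.2e-07), and it stayed between 2.13 and 2.37 in all 17 alternative settings.

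*Sox3* (ENSMUSG00000045179, X chromosome, 59934972 to 59937036, minus strand), the X-linked SOXB1 gene of the epiblast and the neural plate, did not move with the others. Its level was 4.49, 6.99 and 4.89 CPM in Control and 6.97, 6.02 and 5.98 CPM in KD-1. The groups overlapped, because the Control library of middle depth was the highest of all 6. The fold was 1.15 with a 95% interval from 0.871 to 1.52 (adjusted p = 0.34), so that a rise of the size seen in *Sox1* lies outside this interval and a small rise does not. Without the Control library of middle depth the log2 fold change was 0.41 with an adjusted p of 0.013, still under the fold threshold.

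*Pou3f1* (ENSMUSG00000090125, chromosome 4, 124550600 to 124554448, plus strand) encodes Oct6, which is switched on in the primed epiblast and promotes neural fate. It was low in every library. Control libraries held 5, 13 and 26 counts (0.241, 0.385 and 0.469 CPM), and KD-1 libraries 120, 120 and 308 counts (2.86, 2.76 and 3.55 CPM). The groups were far apart, with a log2 fold change of 2.98 ± 0.26 (adjusted p = 2.1e-05), but the Control level rests on few counts.

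Among the neural members, 5 of 5 were called higher. *Sox1* (ENSMUSG00000096014, chromosome 8, 12445295 to 12450126, plus strand), the earliest specific marker of neural plate cells, had 12.5, 13.6 and 11.3 CPM in Control and 43.1, 45.6 and 43.4 CPM in KD-1. Its libraries agreed closely within each group, and it differed between the groups by 1.82 ± 0.08 (standard error) on the log2 scale, with an adjusted p of 4.8e-07. *Sox21* (ENSMUSG00000061517, chromosome 14, 118470644 to 118474442, minus strand) had 13.9, 18.9 and 14.6 CPM in Control and 46.3, 47.3 and 47.4 CPM in KD-1. This repressor of SOXB1 targets was higher, as were *Sox1* and *Sox2*, with a log2 fold change of 1.57 ± 0.11 (adjusted p = 5.7e-06).

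*Pou3f2* (ENSMUSG00000095139, chromosome 4, 22482780 to 22488366, minus strand) encodes Brn2, a partner of Sox2 in neural progenitors and a driver of neuronal fate. It had 4.15, 5.09 and 4.64 CPM in Control and 32.1, 33.4 and 33.8 CPM in KD-1. Both groups were tight, and the log2 fold change was 2.83 ± 0.09 (adjusted p = 7.8e-08). *Pou3f3* (ENSMUSG00000045515, chromosome 1, 42734085 to 42742336, plus strand), which encodes Brn1 and acts with Brn2 in the developing cortex, had 2.32, 2.96 and 1.28 CPM in Control and 43.6, 43.4 and 42.4 CPM in KD-1. The lowest KD-1 library was 14.3 times the highest Control library, and the log2 fold change was 4.38 ± 0.22 (adjusted p = 8.7e-07). *Pou3f3* lies on chromosome 1, where the median log2 fold change was 0.49 and the share called higher was 40.2% (871 genes tested), against -0.05 and 18.0% on the other autosomes (13609 genes). The part of this shift in the value of *Pou3f3* was not tested. On chromosome 1 also lie *Pou2f1*, *Tfcp2l1*, *Prdm14*, *Map2* and *Tfap2b*, called higher below, and *Lefty1*, *Pax3*, *Eya1* and *Col3a1*, called lower. For these genes it was not tested either.

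*Pou3f4* (ENSMUSG00000056854, X chromosome, 109857886 to 109860813, plus strand), which encodes Brn4 of the neural tube and the inner ear, was at the limit of detection in Control. The counts were 0, 0 and 7 in the Control libraries of lowest, middle and highest depth and 133, 136 and 239 in those of KD-1. All Control counts came from 1 library, and the KD-1 level was 3.02 ± 0.231 CPM (SD, n = 3). The pooled ratio was 46.3, with an exact 95% counting interval of 22.3 to 116, and the fitted log2 fold change was 5.56 ± 0.55 (adjusted p = 3.8e-05). Without the deepest Control library, the other two being at 0, the fitted log2 fold change became 10.1, which depends on the prior count and is no bound. Of the 553 genes tested on the X chromosome, which also carries *Sox3*, 27.7% were called higher.

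**Figure D1:**
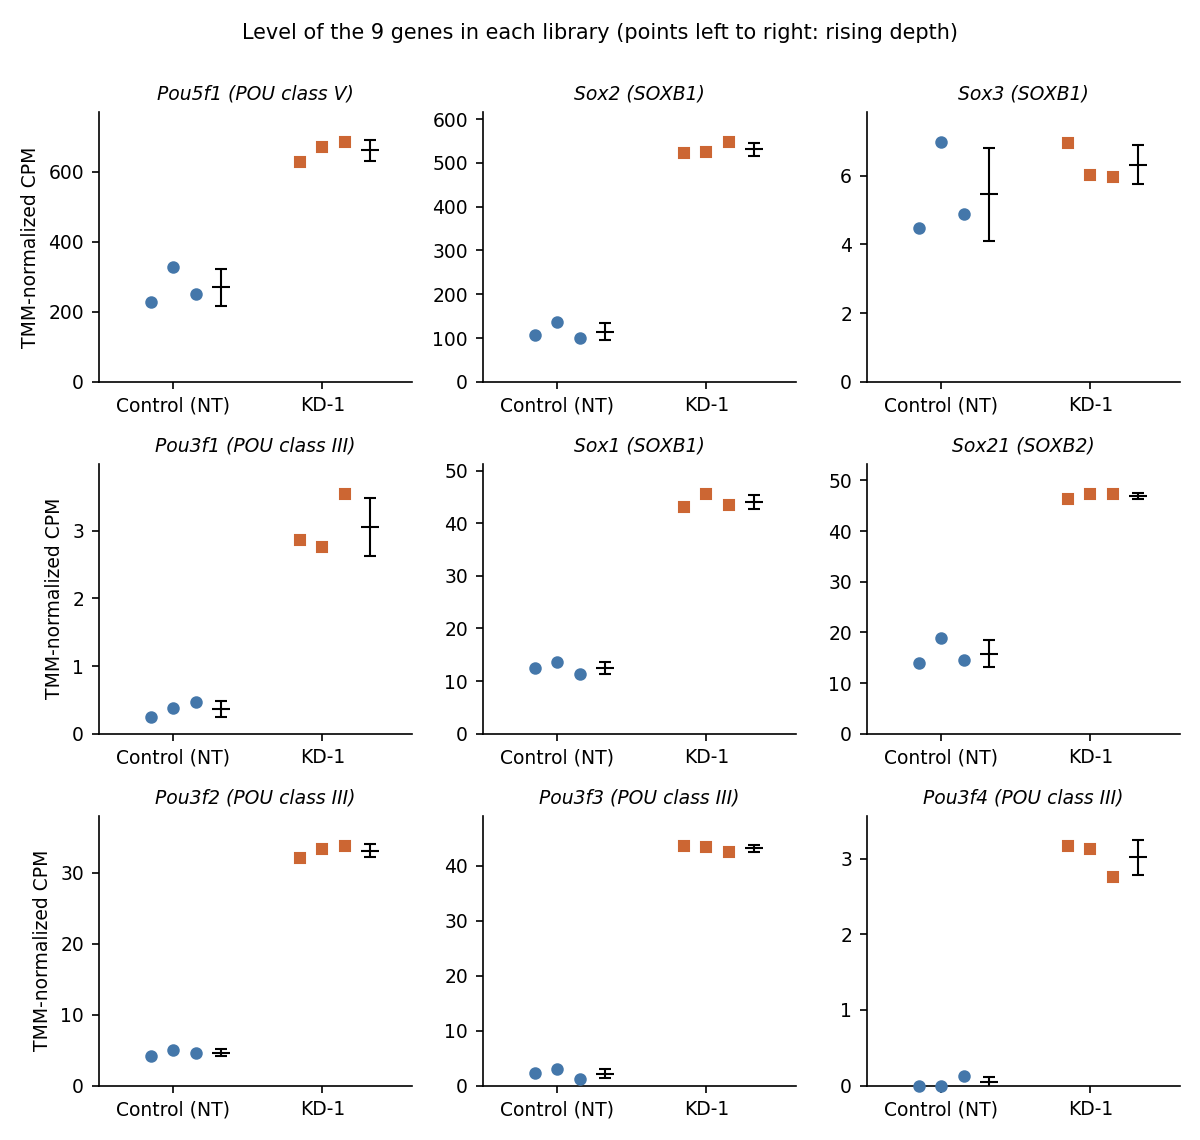
TMM-normalized CPM of each of the 9 genes, on a linear axis from 0, in the 3 Control (NT) libraries (circles) and the 3 KD-1 libraries (squares), placed from left to right by depth, with the mean and SD of each group beside them. In 8 panels the KD-1 libraries lie above all Control libraries. In the *Sox3* panel the groups overlap, with the Control library of middle depth at 6.99 CPM.

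The direction and the call of these 8 genes were the same in every one of the 17 alternative settings that tested them. Settings among the 17 that changed only the fold threshold, or the test against it, kept the fold changes of the main fit and could not move them. The log2 fold change ranged from 1.19 to 1.46 for *Pou5f1*, from 1.75 to 1.90 for *Sox1*, from 1.49 to 1.71 for *Sox21*, from 2.82 to 3.22 for *Pou3f1*, from 2.77 to 2.89 for *Pou3f2* and from 4.001 to 4.75 for *Pou3f3*. A floor of 10 counts in every library removed *Pou3f1* and *Pou3f4* before the test. *Sox3* was called in none of the 17, with log2 fold changes from 0.10 to 0.41.

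For other SOX and POU genes the picture was mixed. Of 16 SOX genes outside the members, 10 were tested, with 1 called higher and 2 lower and a median log2 fold change of -0.01. The number called higher was 3 without the Control library of lowest or of middle depth, 2 without the deepest KD-1 library and 0 without the shallowest KD-1 library. *Sox14*, a SOXB2 gene like *Sox21*, is among the 16 and was too low to test, with 0, 0 and 2 counts in the Control libraries and 2, 5 and 3 in those of KD-1. *Sox12*, a SOXC gene, was 80.5 ± 19.1 CPM in Control and 44.2 ± 0.303 CPM in KD-1 (SD, n = 3), a log2 fold change of -0.87 (adjusted p = 0.00078). *Sox9*, of neural crest and cartilage, was also lower (log2 fold change -0.82, adjusted p = 0.0022), and *Sox7*, an endoderm and endothelial gene, was higher from 0.123 to 0.588 CPM (adjusted p = 0.011). Of 10 POU genes outside the members, 7 were tested, with 4 called higher and 1 lower and a median of 0.91. The number called higher was 2 without the deepest Control library and without any 1 of the 3 KD-1 libraries. *Pou2f1*, the ubiquitous Oct1 and likewise on chromosome 1, was 143 ± 35.6 CPM in Control and 268 ± 12.3 CPM in KD-1 (log2 fold change 0.91, adjusted p = 0.001). *Pou4f1*, the Brn3a gene of sensory neurons, was 5.18 ± 0.693 and 12.7 ± 0.677 CPM (log2 fold change 1.30, adjusted p = 2.6e-05). *Pou4f2* was called higher at a mean level of 0.379 CPM in KD-1, with 1 Control library at 0.

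**Figure D2:**
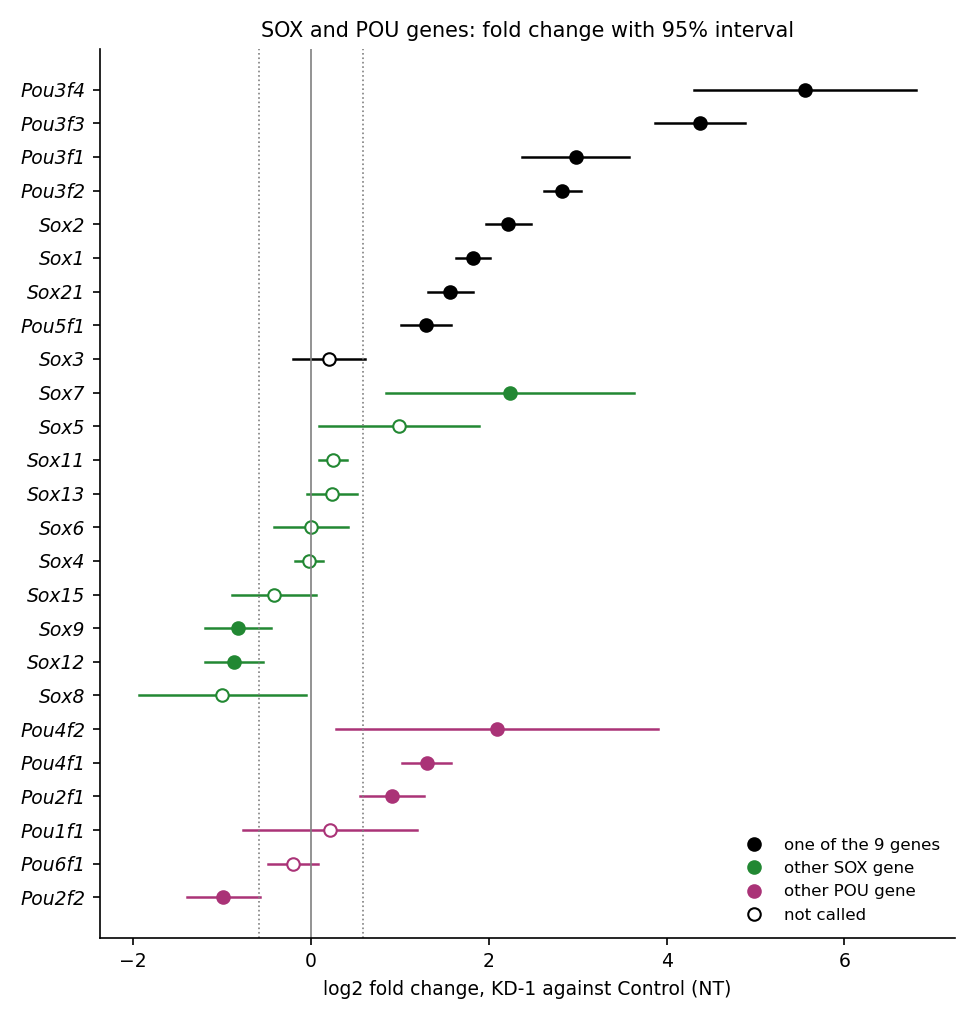
Log2 fold change of KD-1 against Control (NT) with its 95% interval for the 9 genes (black), the 10 other SOX genes tested (green) and 6 of the 7 other POU genes tested (purple). Filled points were called, open points were not, and the dotted lines mark a change of 1.5-fold. Of the 9 genes, *Sox3* alone has an interval that spans 0.

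Levels of different genes were compared per kilobase of annotated exon. In Control the order was led by *Pou5f1* with 87.2 and *Sox2* with 55.4 CPM per kb, followed at a distance by *Sox21* with 4.16, *Sox3* with 2.64 and *Sox1* with 2.58 CPM per kb. The libraries of *Sox3* and *Sox1* overlapped, so that their order is not set. The POU class III genes were the lowest: *Pou3f2* had 0.828, *Pou3f3* 0.283, *Pou3f1* 0.0949 and *Pou3f4* 0.0144 CPM per kb. In KD-1 the lead was held by *Sox2* with 258 and *Pou5f1* with 214 CPM per kb, then *Sox21* with 12.4, *Sox1* with 9.11, *Pou3f2* with 5.93 and *Pou3f3* with 5.58 CPM per kb. *Sox3* stood below them in KD-1, with 3.06 CPM per kb, above *Pou3f4* with 1.03 and *Pou3f1* with 0.794. With these exon lengths no neighbours in the KD-1 order overlapped between libraries, but with the longest or the canonical transcript *Pou3f2* and *Pou3f3* did. Which of *Sox2* and *Pou5f1* is higher in KD-1 depends on the length used, since *Pou5f1* has 25 annotated transcripts and 3090 bases of exon in all: with its canonical transcript of 1488 bases, *Pou5f1* was at 444 and *Sox2* at 258 CPM per kb.

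The mix within each family is given per library, from levels per kb. *Sox2* made up 91.4 ± 0.230% of the summed SOXB1 level in Control and 95.5 ± 0.207% in KD-1 (SD, n = 3). The share of *Sox3* was 3.85, 4.68 and 4.46% in the Control libraries of lowest, middle and highest depth and 1.27, 1.09 and 1.04% in those of KD-1. The share of *Sox1* was 4.30 ± 0.357% in Control and 3.37 ± 0.154% in KD-1, although its own level was higher. For all 3 shares the groups did not overlap, and the exact two-sided permutation test over libraries gave p = 0.1, the smallest that 3 against 3 allows.

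Among the POU genes, *Pou5f1* held a smaller part of the sum in every KD-1 library than in any Control library. *Pou5f1* made up 98.6 ± 0.0883% of the summed level of *Pou5f1* and the 4 class III genes in Control and 94.1 ± 0.212% in KD-1 (exact permutation p = 0.1). The summed class III level was 1.22 ± 0.154 CPM per kb in Control and 13.3 ± 0.102 CPM per kb in KD-1. *Pou3f2* then held 2.61% and *Pou3f3* 2.46% of the sum in KD-1, against 0.948% and 0.318% in Control. The size of this difference in the *Pou5f1* share depends on the length given to *Pou5f1*. The log2 ratio of *Sox2* to *Pou5f1*, whose difference between the groups is free of length, was -0.52, -0.68 and -0.75 in Control and 0.32, 0.23 and 0.27 in KD-1. *Sox2* was thus higher relative to *Pou5f1* in every KD-1 library, by 0.92 on the log2 scale (exact permutation p = 0.1).

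**Figure D3:**
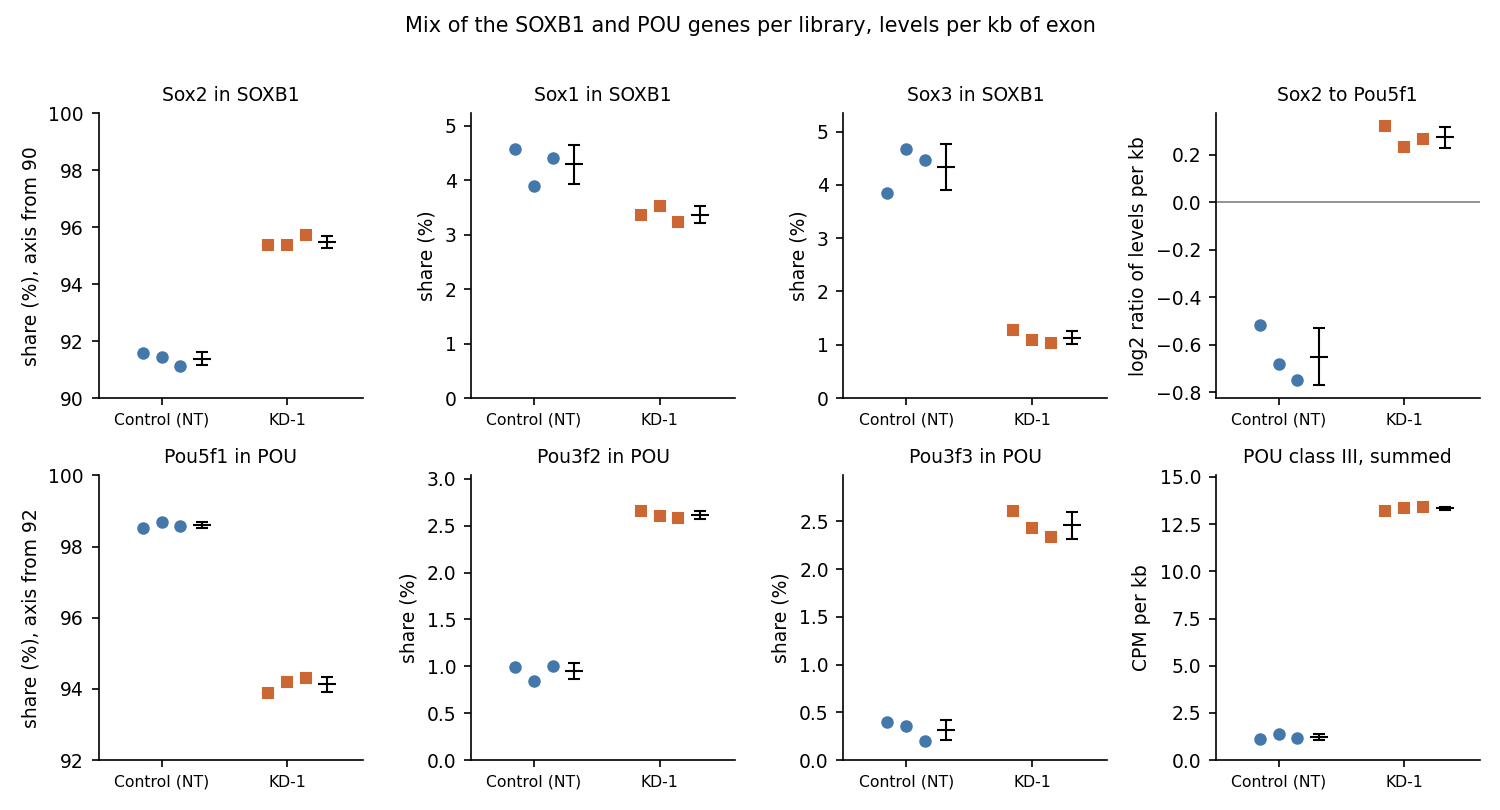
Shares of SOXB1 and POU genes in their family's summed level per kb (%), the log2 ratio of *Sox2* to *Pou5f1* and the summed POU class III level (CPM per kb), in each Control (NT) library (circles) and KD-1 library (squares), with the mean and SD. The axes of the *Sox2* and *Pou5f1* shares start above 0, as their labels say. In every panel the groups do not overlap, and the *Sox3* share is between 3.85 and 4.68% in Control and between 1.04 and 1.27% in KD-1.

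Over the 6 libraries, the genes most like *Pou5f1* among the 141 genes of 16 companion lists were *Klf4*, *Zscan10* and *Zfp42* (Rex1), at distances of 0.261, 0.325 and 0.352 between centred log2(CPM + 0.5) profiles. All are known from naive pluripotent cells. Those most like *Sox2* included *Zic1* and *Elavl4*, at distances of 0.464 and 0.466, which are genes of the neural plate and of neurons. These distances largely follow the size of the difference between the groups.

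Genes listed as targets of Oct4 or Sox2 were mostly higher as well. Of 8 such targets, 7 were called higher and 1 lower, with a median log2 fold change of 1.64. *Nanog* was 109 ± 5.74 CPM in Control and 347 ± 11.5 CPM in KD-1 (log2 fold change 1.67, adjusted p = 1.4e-07), and *Spp1* was 39.9 ± 5.76 and 191 ± 9.73 CPM (SD, n = 3 each; log2 fold change 2.25). *Dppa4* followed with a log2 fold change of 1.70. The target that was lower was *Lefty1*, an inhibitor of Nodal, at 47.5 ± 6.56 CPM in Control and 23.2 ± 0.199 CPM in KD-1 (log2 fold change -1.03, adjusted p = 3e-05). Of 8 genes known to silence *Pou5f1* or *Sox2* during differentiation, 7 were called lower and 1 higher, with a median of -1.27. *Nr6a1* (GCNF), the nuclear receptor that represses *Pou5f1*, was 176 ± 11.6 CPM in Control and 72.1 ± 3.25 CPM in KD-1 (log2 fold change -1.29, adjusted p = 9.7e-07). *Nr2f1* (COUP-TFI) had a log2 fold change of -1.69, the DNA methyltransferase gene *Dnmt3a* one of -0.74, and *Tbx6*, which represses *Sox2* in presomitic mesoderm, one of -1.47 from a Control mean of 0.692 CPM. *Dnmt3b*, a second de novo methyltransferase and itself a marker of the formative epiblast, was the one called higher (log2 fold change 0.85).

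Markers of pluripotent states were mostly higher as well. Of 10 naive pluripotency genes 8 were called higher and none lower (median log2 fold change 1.52), and their summed level was 500, 453 and 491 CPM in the Control libraries and 1473, 1444 and 1480 CPM in those of KD-1. *Tfcp2l1*, the most abundant, was 136 ± 26.7 and 434 ± 13.5 CPM, *Esrrb* had a log2 fold change of 1.87 and *Prdm14* one of 1.90, while *Tbx3* (adjusted p = 0.17) and *Dppa3* (0.0503) did not pass. Of 10 formative and primed epiblast genes 6 were called higher and 1 lower (median 1.11). *Otx2*, which moves cells out of the naive state, was 4.34 ± 0.633 CPM in Control and 42.3 ± 0.692 CPM in KD-1 (log2 fold change 3.29, adjusted p = 7.8e-08). *Foxd3* had a log2 fold change of 3.19, with a KD-1 mean of 1.55 CPM. The one called lower was *Etv4*, an ETS factor gene, at 69.0 ± 9.46 CPM in Control and 30.5 ± 0.282 CPM in KD-1 (log2 fold change -1.18, adjusted p = 1.3e-05). *Zic2* (log2 fold change -0.43, adjusted p = 0.0031) and *Sall2* (-0.37, adjusted p = 0.00063) had every KD-1 library below every Control library but were under the fold threshold. Of 8 germ cell genes 6 were called higher and none lower (median 1.47). The most abundant, *Kit*, was 26.5 ± 1.83 and 72.4 ± 1.92 CPM, *Tfap2c* had a log2 fold change of 1.09, *Ddx4* was 0.489 and 15.4 CPM, and *Dazl* was 0.0965, 0 and 0 CPM in Control against 6.99, 8.48 and 8.80 CPM in KD-1. Which cells carried *Pou5f1* was not tested.

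Markers of neural cells moved in both directions. Of 10 neural progenitor genes 9 were tested, with 5 called higher and 1 lower (median log2 fold change 1.11), and their summed level was 289, 284 and 295 CPM in Control and 506, 507 and 513 CPM in KD-1. *Fabp7*, a gene of radial glia and the most abundant of the list, was 16.3 ± 2.22 CPM in Control and 243 ± 2.30 CPM in KD-1 (log2 fold change 3.90, adjusted p = 2.7e-08). It carried the difference in the sum: without *Fabp7* the list summed to 272, 270.2 and 277 CPM in Control and to 264, 266 and 268 CPM in KD-1, lower in every KD-1 library. *Zic1* had a log2 fold change of 1.90. *Notch1* was lower (log2 fold change -1.95), *Nes* (Nestin) was at -0.44, under the fold threshold, and *Olig2* was too low to test. Of 10 neuronal genes 8 were called higher and 2 lower (median 2.69), with a summed level of 76.5, 82.8 and 79.5 CPM in Control and 347, 346 and 360 CPM in KD-1. *Stmn2*, the most abundant, was 13.5 ± 0.459 and 128 ± 3.40 CPM, *Map2* had a log2 fold change of 3.37 and *Elavl3* one of 4.19. *Dcx* was 0.868, 0 and 0.541 CPM in Control and 24.2, 26.6 and 26.0 CPM in KD-1. *Nefl* and *Isl1*, also neuronal genes, were lower, with log2 fold changes of -1.84 and -1.30. *Isl1* was not called without the shallowest or the deepest KD-1 library, which left 1 neuronal gene called lower. The part of neurons in the levels of the neural members was not tested.

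Markers of other cells that gastruloids can hold were counted for comparison. All 8 of the presomitic and somite genes tested, of 10, were called lower (median log2 fold change -2.37). *Meox1*, a somite gene, was 371 ± 16.7 CPM in Control and 0.423 ± 0.0313 CPM in KD-1, *Foxc2* was 19.7 and 0.0589 CPM, and *Pax3* had a log2 fold change of -1.09. Of 10 neuromesodermal and caudal epiblast genes 2 were called higher and 4 lower (median -0.04). *T* (Brachyury) was 6.69 ± 1.77 and 5.42 ± 0.407 CPM (adjusted p = 0.17), *Nkx1-2* had a log2 fold change of 0.93, *Cdx2* one of -1.25, *Cdx1* one of -4.22 and the retinoic acid-degrading enzyme gene *Cyp26a1* one of -3.83. Of 10 definitive endoderm genes 6 were tested, with 2 called higher and 3 lower. *Trh* and *Epcam* were higher, by 1.02 and 1.87 on the log2 scale, *Cer1* was lower, at -7.93, and *Sox17* and *Foxa2*, which define the lineage, were at most 0.266 CPM in any library.

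Of 8 glial and neural crest genes 7 were tested, with 4 called higher and 1 lower. *Tfap2b*, a neural crest gene, was 0.209 ± 0.0239 CPM in Control and 18.1 ± 0.698 CPM in KD-1, and *Ets1* fell from 112 to 3.36 CPM. Of 8 surface ectoderm and placode genes 5 were tested, with 2 called higher and 3 lower, among them *Eya1*, with a log2 fold change of -3.27. The number called higher was 1 when the deepest Control library or any 1 KD-1 library was left out. Of 8 trophoblast genes 5 were tested and 2 were called higher, *Tfap2c* and *Eomes*, the latter from 2.84 to 4.72 CPM. Feeder fibroblast markers, from cells on which ESCs can be grown, were low in all libraries: of 8 genes 5 were tested and 4 were called lower, and the most abundant, *Col3a1*, was 5.44 ± 0.328 CPM in Control and 0.120 ± 0.0289 CPM in KD-1, while *Acta2* fell from 1.51 to 0.0310 CPM. Without the shallowest KD-1 library 7 were called lower, and without the deepest Control library 1 was called higher, against 0 with all libraries. Of the 141 companion genes, 11 stand in more than 1 list. Counted once each, 52 were called higher and 36 lower, and 54 and 35 without the Control library of middle depth.

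**Figure D4:**
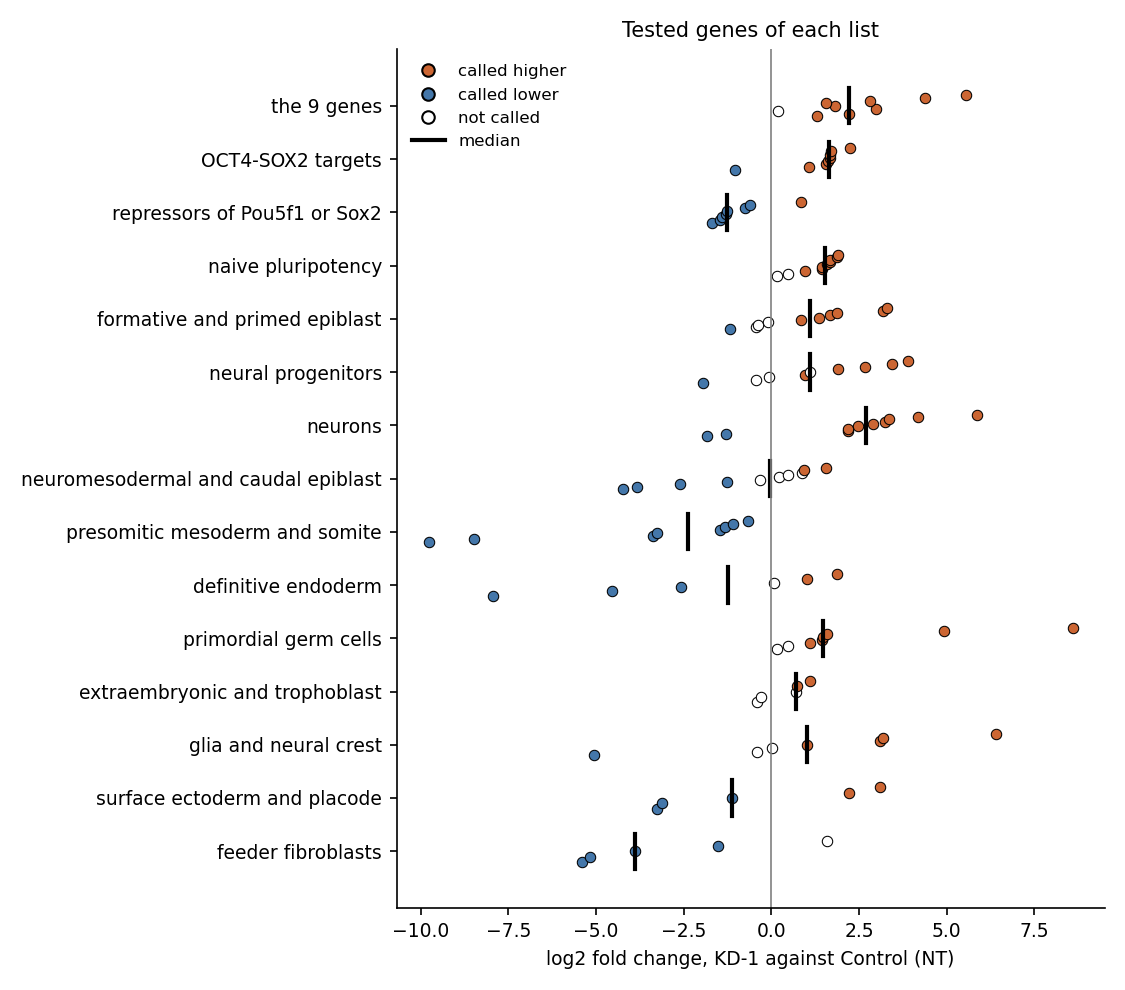
Log2 fold change of KD-1 against Control (NT) for each tested gene of the 9 described here and of 14 lists of targets, repressors and cell-type markers. Colour shows the call and the bar the median of the list. The 9 genes have a median of 2.22, neuronal genes 2.69, naive pluripotency genes 1.52 and presomitic and somite genes -2.37.

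The annotation limits how surely reads belong to these genes. In GENCODE vM39, 8 of the 9 genes share exon bases with another gene that the count table does not list, and for 7 of them that gene is antisense, such as *Sox21os1* for *Sox21* and *Pantr1* for *Pou3f3*. Whether strand was used in the quantification is not stated, so that reads of a member and of its antisense partner cannot be told apart.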

How the data were processed

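Bulk RNA-seq libraries (Illumina TruSeq, paired-end) of 3 Control (NT) and 3 KD-1 day 5 gastruloids were used. The authors quantified reads with Salmon 1.1 (after bcl2fastq) against a Gencode gene model of unstated genome build and deposited estimated counts (expected counts) per Ensembl gene, as whole numbers without normalization. Column names gave the group of a library but not its replicate number. Of 35565 identifiers, 35222 were found in GENCODE vM39 (GRCm39).

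Genes kept by filterByExpr (15110) were tested with edgeR 4.0.16 (R 4.3.3; TMM, robust quasi-likelihood fit, condition only) with Benjamini-Hochberg adjustment. Levels per kb used the union of annotated exons. Shares and ratios were tested by exact two-sided permutation over libraries. Tested on counts simulated for KD-1 against Control, with 200 genes changed by 1.5 on the log2 scale, edgeR recovered 200 and called 5 of 14911 unchanged genes. Every gene was given the same dispersion, and the changed genes, equal in number up and down, were drawn from those with enough expected counts. The simulation thus held no outlying library and far fewer changed genes than were called in the data. It does not speak for Control levels as low as those of *Pou3f1* and *Pou3f4*. Alternatives were DESeq2 1.42.0, limma-voom 3.58.1, other normalizations, filters, thresholds and gene lengths, and each library left out in turn.

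The 9 genes and the companion lists were chosen with earlier results of these data known. All 9 genes are named. From each list the rule names, among called genes, the 2 with the highest mean CPM and the 2 with the largest change among those with at least 10 counts in every library of a group, then other SOX and POU genes called with a mean over 5 CPM, the 3 genes most like *Pou5f1* and *Sox2*, and genes overlapping a member. *Lefty1*, *Dnmt3b*, *Tbx3*, *Dppa3*, *Etv4*, *Zic2*, *Sall2*, *Sox14*, *Notch1*, *Nes*, *Olig2*, *Nefl*, *Isl1*, *T*, *Sox17* and *Foxa2* were named after their values were seen, and the sum without *Fabp7* was likewise added then. Some genes that the rule names are not reported here. Protein sequences were not analysed here. Intervals cover counting error only where they are called counting intervals.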

Additional observations from a re-analysis of the deposited data

How the results depend on the processing

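Members called higher numbered 8 in the fit reported and in 16 of 17 alternatives, and 6 with at least 10 counts in every library, which removed *Pou3f1* and *Pou3f4* from the test. No alternative reversed a member. Companion genes called lower fell from 36 to 23 with at least 10 counts in every library, a filter that tests fewer genes. The change in the share of *Pou5f1* among the POU genes was -4.48 percentage points with exon length, -3.16 with the longest transcript, -2.30 with the canonical transcript (added after the data were seen) and -8.46 without length. The rise in the share of *Sox2* among SOXB1 genes was 4.12 points and 4.98 without length. With 1 library left out, these ran from -4.57 to -4.36 and from 3.99 to 4.22 points, and the log2 ratio of *Sox2* to *Pou5f1* differed by 0.87 to 0.99. Other values, mostly counts of small lists, kept to within 1.5 times or 1 SD in 704 comparisons and moved further in 61. No paired analysis was possible because the column names carry no replicate numbers that match the labels. With 3 libraries a group, exact tests cannot go below 0.1, and the Control levels of *Pou3f1* and *Pou3f4* rest on at most 26 counts a library.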
